A study of Mus musculus with 6 samples.

Results

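Inflammasomes are cytosolic protein complexes that form when a sensor detects microbial products or cell damage. The sensor recruits caspase-1, directly or through the adaptor ASC, and the active caspase matures interleukin-1β and interleukin-18 and cleaves gasdermin D, whose freed N-terminal part forms pores in the plasma membrane. In the intestinal epithelium this pathway is known for the pyroptosis and expulsion of infected cells, and the gasdermin C genes form a cluster that is expanded in the mouse and expressed in gut epithelium. The 10 genes described here were chosen by name for these roles, with earlier results of these data known. The rule itself used no measured value. They are the sensors Nlrp6 and Nlrc4, the adaptor Pycard, the inflammatory caspases Casp1 and Casp4, and the pore formers Gsdmd, Gsdmc, Gsdmc2, Gsdmc3 and Gsdmc4. All 10 were found among the 23725 genes of the table and all 10 were among the 12837 genes tested.

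RNA was measured in colonic epithelial cells that had been enriched on a Percoll gradient from C57BL/6J mice, without culture. The knockout group (KO, n = 3 libraries) was labelled B6-Cg-Nr3c1-Vil-Cre/ERT2 (Nr3c1IEC-/-), an inducible loss of Nr3c1, the glucocorticoid receptor gene, with the recombinase under the villin promoter, which is active in intestinal epithelium. The wild-type group (WT, n = 3 libraries) was labelled only as wild type, so whether these mice carried the Cre transgene is not stated. Both groups received 5 daily injections of tamoxifen, and the cells were collected 7 days from the first of them. Age and sex are not given in the labels. The comparison asks which transcripts differ in the epithelium when the receptor gene is deleted.

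Recovered reads numbered 10089313 to 12030844 per library. The targeted gene Nr3c1 had 144.7, 123.1 and 174.7 normalized reads in the KO libraries, against 1119.8, 967.1 and 196.7 in the libraries labelled WT 1, 2 and 3. The library labelled WT 3 therefore goes against its label at this gene, and results are also given without it. On the first principal component of all tested genes, which held 77% of the variance, it lay at 37.2. WT 1 lay there at 65 and WT 2 at 61.7, and the KO libraries from -80.2 to -37.5. Whether its label is right was not tested. All 10 epithelial marker genes were present, with means over the 6 libraries of 2351 to 130800 normalized reads, so the labelled cell type was present in every library. Of 44 marker genes of other cell types 25 were tested, of which 15 rose and 1 fell. Over all tested genes 15.0% rose and 15.4% fell. The marker that fell was Kit, listed for mast cells. The other mast cell marker, Cpa3, was at 0 in all 3 WT libraries. The summed level of the 44 was 10700, 4080 and 4432 normalized reads in KO, against 1176, 1697 and 2186 in WT. None of the 44 was at 0 in all 6 libraries. In bulk samples like these, more or fewer cells of a type and more or less RNA per cell cannot be told apart.

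Of the 10 genes, 2 rose in KO, Gsdmd and Nlrc4, and 1 fell, Pycard. The other 7 did not pass the threshold (limma, Benjamini-Hochberg adjusted p of 0.05 over all tested genes). Among all tested genes 15.0% rose and 15.4% fell, so a count of 2 raised and 1 lowered among 10 lies near the background, and nothing about the set as a whole is read from it. The median log2 change of the 10 genes was -0.24, against 0.01 over all tested genes. It falls between Gsdmc (-0.25) and Gsdmc4 (-0.24), neighbouring copies whose levels moved together, so nothing is read from the median either. All 3 KO libraries lay above all 3 WT libraries for 3 genes, Gsdmd, Nlrc4 and Casp1, and below them for Pycard, while the groups overlapped for the other 6. Across all tested genes 25.2% separated upward in this way and 25.5% downward. The same 3 genes were called by edgeR, which called 30.4% of all tested genes, and by DESeq2, which called 32.4%. Without the library labelled WT 3, where 25.1% of all tested genes were called, Gsdmd and Nlrc4 were called and Pycard was not.

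**Figure D1:**
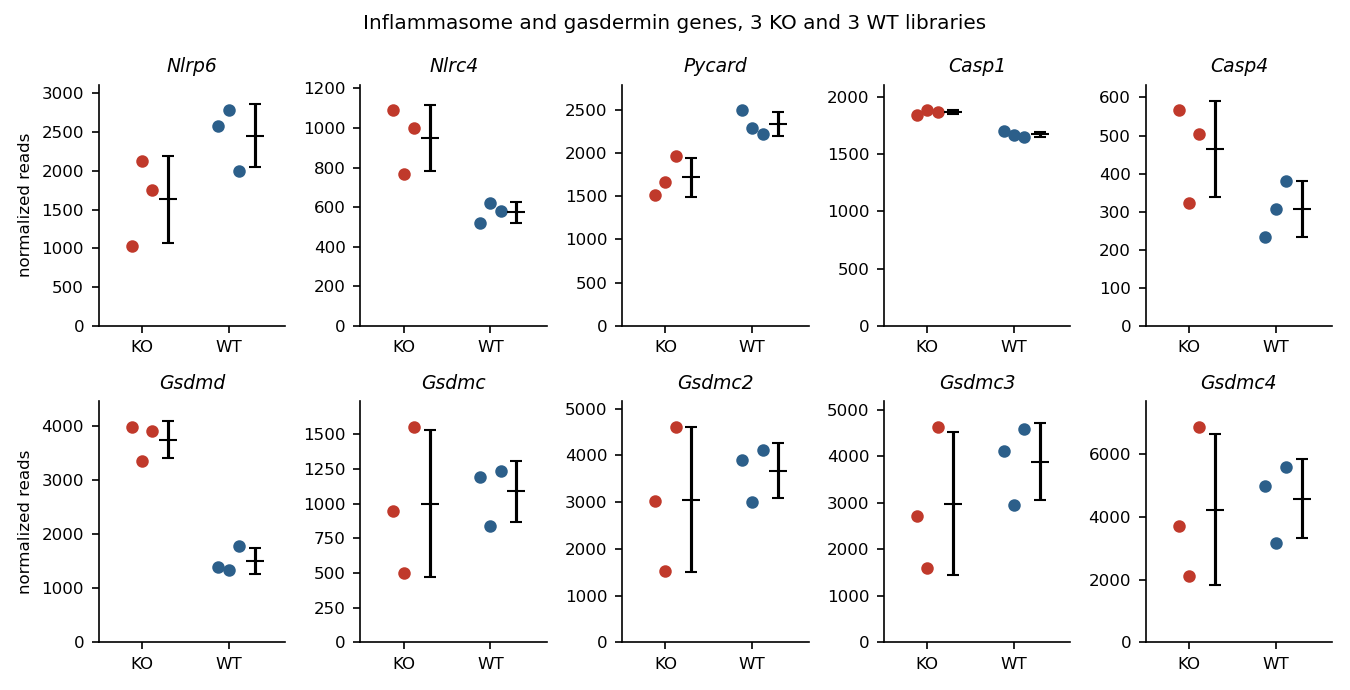
Normalized reads (vertical axes, from 0) of the 10 genes in the 3 KO and 3 WT libraries. Points are libraries, and the black bars give mean ± SD of each group. Gsdmd lies between 3356.6 and 3979.3 in KO and between 1329.9 and 1772.2 in WT, whereas the gasdermin C genes spread most widely among the KO libraries.

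Gasdermin D carried the largest change of the 10 genes. Gsdmd (Entrez 69146, GRCm38 chromosome 15, 75862144 to 75867408, plus strand), the pore former that caspase-1 and caspase-11 cleave, had 3979.3, 3356.6 and 3898.9 normalized reads in the KO libraries and 1389.3, 1329.9 and 1772.2 in the WT libraries. Every KO library lay far above every WT library, the highest of which was the one labelled WT 3. The group means were 3745 ± 338.7 in KO and 1497 ± 240.1 in WT (SD, n = 3 each), and the log2 change was 1.33 (SE 0.14, limma adjusted p = 0.00107). That is a fold of 2.51 with a 95% interval of 2.01 to 3.15. Without the library labelled WT 3 the log2 change was 1.46 (limma adjusted p = 0.00146). Leaving out each of the 6 libraries in turn gave 1.25 to 1.46 and kept the call each time.

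The sensor genes lay on opposite sides of 0. Nlrc4 (Entrez 268973, chromosome 17, 74426255 to 74459144, minus strand) encodes the protein that joins flagellin- and secretion-system-bound Naip proteins into an inflammasome. It had 1089.2, 766.7 and 998.6 normalized reads in KO, against 519.0, 621.9 and 580.1 in WT. The WT libraries lay close together and below every KO library, among which KO 2 was the lowest. Means were 951.5 ± 166.3 in KO and 573.7 ± 51.75 in WT, a log2 change of 0.72 (SE 0.15, limma adjusted p = 0.0120) and a fold of 1.64 with a 95% interval of 1.29 to 2.10. Without the library labelled WT 3 the log2 change was 0.73 (limma adjusted p = 0.0322), and without WT 1 it was 0.65 and missed the threshold (limma adjusted p = 0.0547).

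Nlrp6 (Entrez 101613, chromosome 7, 140920902 to 140929192, plus strand) encodes a sensor known for its expression in intestinal epithelium. It had 1027.3, 2129.4 and 1748.0 normalized reads in KO and 2584.5, 2781.0 and 1996.3 in WT. KO 1 was the lowest of the 6 libraries, and KO 2 lay above the library labelled WT 3, so the groups overlapped. Means were 1635 ± 559.7 in KO and 2454 ± 408.3 in WT. The log2 change of -0.64 (SE 0.26) had a 95% interval of -1.25 to -0.02 and was not called (limma adjusted p = 0.102). Without KO 2 it was -0.86 and passed (limma adjusted p = 0.0410), and without the library labelled WT 3 it was -0.78 and did not pass (limma adjusted p = 0.0940).

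Pycard (Entrez 66824, chromosome 7, 127991373 to 127993867, minus strand) encodes ASC, the adaptor that links sensors with a pyrin domain, such as Nlrp6, to caspase-1. It had 1520.0, 1669.0 and 1967.6 normalized reads in KO, against 2494.2, 2291.1 and 2219.4 in WT. Every KO library lay below every WT library, with the narrowest gap between KO 3 and the library labelled WT 3. Means were 1719 ± 227.9 in KO and 2335 ± 142.6 in WT, a log2 change of -0.45 (SE 0.12, limma adjusted p = 0.0305) and a fold of 0.733 with a 95% interval of 0.601 to 0.894. The size held but the call did not when libraries were left out. The log2 change stayed between -0.55 and -0.36, while the adjusted limma p was 0.0609 without KO 1, 0.0647 without KO 2, 0.114 without WT 1, 0.0888 without WT 2 and 0.0551 without the library labelled WT 3. Only leaving out KO 3 kept the call (limma adjusted p = 0.0214).

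The caspase genes did not pass the threshold. Casp1 (Entrez 12362, chromosome 9, 5298517 to 5307281, plus strand), the protease at the centre of the canonical pathway, had 1846.0, 1883.2 and 1873.1 normalized reads in KO and 1699.3, 1667.2 and 1652.9 in WT. The groups did not overlap and each was tight, with means of 1867 ± 19.2 in KO and 1673 ± 23.72 in WT. The difference was small, a log2 change of 0.16 (SE 0.09, limma adjusted p = 0.203), and its 95% interval of -0.05 to 0.36 holds both no change and a fold of 1.29. Without the library labelled WT 3 the log2 change was 0.15 (limma adjusted p = 0.345). The limma SE draws on the spread of other genes at this level and is wider than that of these 6 values alone.

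Casp4 (Entrez 12363, chromosome 9, 5308849 to 5336791, plus strand) encodes caspase-11, the mouse protease that binds bacterial lipopolysaccharide in the cytosol. It had 566.1, 323.9 and 505.0 normalized reads in KO, against 232.4, 307.0 and 380.7 in WT. KO 1 and KO 3 were above all WT libraries, and KO 2 fell within the WT range. Means were 465 ± 126 in KO and 306.7 ± 74.12 in WT, and the log2 change of 0.59 (SE 0.25, 95% interval 0.01 to 1.17) was not called (limma adjusted p = 0.110). Without KO 2 it was 0.83 and passed (limma adjusted p = 0.0303), and without the library labelled WT 3 it was 0.76 and did not pass (limma adjusted p = 0.0779).

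The gasdermin C genes lie side by side on the minus strand of chromosome 15. They are Gsdmc (Entrez 83492, 63775971 to 63808739), Gsdmc2 (331063, 63824328 to 63845193), Gsdmc3 (270328, 63857605 to 63878579) and Gsdmc4 (74548, 63891140 to 63912319). Because reads of such close copies can be shared or dropped in counting, the start of their coding sequence is shown, bases 1 to 90 from the start codon in the GENCODE transcripts of GRCm38. Capitals mark the 11 positions at which the 4 genes are not all alike, against 79 at which they are.
Gsdmc: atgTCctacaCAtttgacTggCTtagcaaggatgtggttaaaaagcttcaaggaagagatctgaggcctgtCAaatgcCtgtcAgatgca
Gsdmc2: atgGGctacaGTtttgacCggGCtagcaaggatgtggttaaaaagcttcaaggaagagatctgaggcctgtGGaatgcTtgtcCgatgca
Gsdmc3: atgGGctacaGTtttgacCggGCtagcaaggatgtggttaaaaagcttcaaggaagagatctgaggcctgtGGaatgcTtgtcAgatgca
Gsdmc4: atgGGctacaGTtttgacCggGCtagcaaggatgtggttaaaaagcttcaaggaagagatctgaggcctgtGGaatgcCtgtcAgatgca

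Over the whole coding sequence Gsdmc2 and Gsdmc3 were identical at 97.1% of aligned bases. Gsdmc4 was identical to each of them at 93.8%, and Gsdmc to the other 3 at 87.0% to 87.5%. Gsdmd was identical to the gasdermin C genes at 57.1% to 59.6%. Of all 75-base stretches in the transcripts of a gene, 39.3% of those of Gsdmc2, 35.8% of Gsdmc3, 28.5% of Gsdmc4 and 10.9% of Gsdmc also occurred in another gasdermin C gene. For Gsdmd, Casp1 and Casp4 the share was 0%. No source used here gives the read length or the counter, so the split of reads among the 4 gasdermin C genes is uncertain. Their sum is less exposed to reads placed on the wrong copy, but reads dropped in counting are lost from the sum too.

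None of the 4 gasdermin C genes was called, and all 4 varied more among the KO libraries than among the WT libraries. Gsdmc had 943.5, 499.8 and 1553.3 normalized reads in KO, against 1193.0, 837.0 and 1237.7 in WT. Gsdmc2 had 3032.7, 1524.1 and 4611.1 in KO, against 3892.1, 3011.8 and 4117.3 in WT. In both genes KO 2 was the lowest and KO 3 the highest of all 6 libraries, so that the KO group spanned the WT group. Gsdmc3 had 2716.1, 1602.8 and 4629.2 in KO, against 4109.7, 2958.0 and 4576.3 in WT. Gsdmc4 had 3712.0, 2118.0 and 6870.8 in KO, against 4989.5, 3166.3 and 5579.0 in WT. In these genes too KO 2 was the lowest and KO 3 the highest of the 6 libraries.

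Their log2 changes were -0.25 for Gsdmc (SE 0.37), -0.39 for Gsdmc2 (SE 0.36), -0.49 for Gsdmc3 (SE 0.36) and -0.24 for Gsdmc4 (SE 0.41). The adjusted limma p ranged from 0.321 to 0.680, and each 95% interval held 0, with the outermost bounds at -1.32 for Gsdmc3 and 0.71 for Gsdmc4. The data therefore set a wide limit on the change of these genes and do not show that they were alike in both groups. Without the library labelled WT 3 the log2 changes lay between -0.36 for Gsdmc3 and -0.07 for Gsdmc4 and none was called. Without KO 2 the log2 change turned positive for Gsdmc (0.17), Gsdmc2 (0.04) and Gsdmc4 (0.18).

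The sum of the 4 genes was 10404, 5744.7 and 17664 normalized reads in KO, against 14184, 9973.1 and 15510 in WT. The highest KO library held 3.07 times the lowest, and the highest WT library 1.56 times the lowest. The KO mean of 11270 ± 6007 lay within 1 SD of the WT mean of 13220 ± 2891. While the sum moved, its makeup hardly did. Gsdmc4 made up 35.7%, 36.9% and 38.9% of the sum in KO and 35.2%, 31.7% and 36.0% in WT, and Gsdmc made up 9.07%, 8.70% and 8.79% in KO and 8.41%, 8.39% and 7.98% in WT. Gsdmc3 made up 26.1%, 27.9% and 26.2% in KO, below its shares of 29.0%, 29.7% and 29.5% in WT, and Gsdmc2 ranged from 26.1% to 29.1% in KO and from 26.5% to 30.2% in WT. The shares of Gsdmc and Gsdmc3 thus did not overlap between the groups, but no test was made of shares, since the split of reads among the copies is uncertain. Of the neighbouring gene models, Gsdmcl1 had 0.955 normalized reads in KO 3 alone and Gsdmcl2 had none in any library. The pseudogene Gsdmcl-ps had 57.7, 13.5 and 54.4 in KO, against 12.7, 5.87 and 25.5 in WT.

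**Figure D2:**
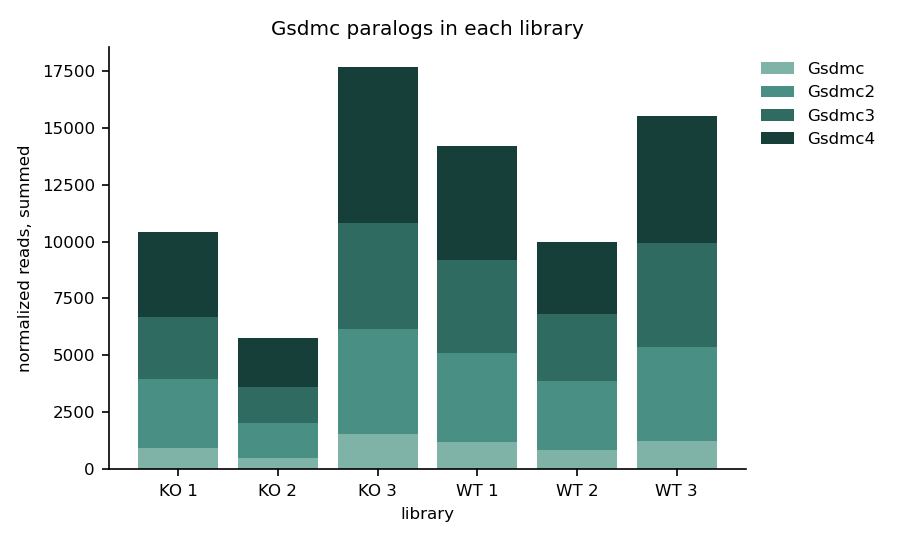
Stacked bars of the normalized reads of Gsdmc, Gsdmc2, Gsdmc3 and Gsdmc4 (vertical axis, from 0) in each KO and WT library. The summed height runs from 5744.7 in KO 2 to 17664 in KO 3, and the WT libraries lie between 9973.1 and 15510, while the proportions of the 4 shades stay nearly the same.

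Levels of different genes were set side by side only after division by length, here as normalized reads per kilobase of the principal transcript. Reads shared among the gasdermin C copies can be dropped or misplaced in counting, so the places of these genes against the others are uncertain. In KO the order was led by Gsdmd at 2090 ± 189 and Gsdmc4 at 2031 ± 1160, which do not differ beyond their spread. Gsdmc2 at 1413 ± 714, Gsdmc3 at 1394 ± 715.3 and Casp1 at 1247 ± 12.82 followed, also within their spread of each other. In WT the order was led by Gsdmc4 at 2196 ± 603.3, Gsdmc3 at 1814 ± 389.2 and Gsdmc2 at 1699 ± 270.2, which overlapped, and Gsdmd at 835.5 ± 134 stood below Casp1 at 1118 ± 15.85. Lower in the order lay Gsdmc with 415.3 ± 219.9 in KO and 452.9 ± 91.29 in WT, and Nlrp6 with 368.6 ± 126.2 in KO and 553.2 ± 92.05 in WT. Casp4 had 324 ± 87.79 in KO and 213.7 ± 51.65 in WT, and Nlrc4 was the lowest in both groups with 201.2 ± 35.17 in KO and 121.3 ± 10.94 in WT. The place of Pycard depends on the length used. It had 452.3 ± 59.98 in KO and 614.5 ± 37.52 in WT per kilobase of its 3800-base principal transcript. Per kilobase of its 579 coding bases it had 2969 ± 393.6 in KO and 4033 ± 246.2 in WT.

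The opposite directions of Gsdmd and Nlrc4 on one side and Pycard on the other show as ratios of normalized reads within each library. These are not per length, so they are compared between libraries only, and they do not depend on the scaling between libraries. The ratio of Gsdmd to Pycard was 2.62, 2.01 and 1.98 in KO and 0.56, 0.58 and 0.80 in WT. The lowest KO ratio was above the highest WT ratio. This follows from the separation of the 2 genes in opposite directions and is no further support. The ratio pairs were not among the planned results. The ratio of Gsdmd to Casp1 was 2.16, 1.78 and 2.08 in KO and 0.82, 0.80 and 1.07 in WT. Between the sensors, the ratio of Nlrc4 to Nlrp6 was 1.06, 0.36 and 0.57 in KO and 0.20, 0.22 and 0.29 in WT, with KO 1 standing highest. The ratio of Casp4 to Casp1 overlapped between the groups, with 0.31, 0.17 and 0.27 in KO and 0.14, 0.18 and 0.23 in WT.

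Across the 6 libraries the genes fell into patterns, given here as a description, since the points share the group difference and the libraries' cell makeup. On the log2 scale the 4 gasdermin C genes followed one another with Pearson's r of 0.96 to 0.99 (n = 6), and reads shared among these copies can enter each of them. Gsdmd followed Nlrc4 (0.92) and Casp1 (0.93) and ran against Pycard (-0.88), while its r with the gasdermin C genes was between -0.31 and -0.06. The gene outside the set most like Gsdmd over the 6 libraries was Tnni2 (0.999), and the gene most like Nlrc4 was Bcl2l15 (0.997). Tnni2 had 42.98, 19.66 and 36.28 normalized reads in KO and 0, 0 and 1.821 in WT. Bcl2l15 had 187.6, 22.76 and 104.1 in KO and 0, 2.934 and 1.821 in WT. Both were near 0 in WT and passed the filter through the KO libraries alone. For Pycard it was Stard13 (0.998), for Casp1 Srp68 (0.999), for Casp4 Gimap3 (0.997) and for Nlrp6 Pts (0.997). For the gasdermin C genes it was Kdm7a with Gsdmc (0.989), Nfat5 with Gsdmc2 (0.985), Ptpn4 with Gsdmc3 (0.988) and Bclaf1 with Gsdmc4 (0.98). Each was picked as the highest of all other tested genes, so a high r is given by the choice.

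Promoter sequence was at hand in RefSeq (GRCm38.p6) for 6 of the 10 genes, Nlrp6, Nlrc4, Pycard, Casp1, Casp4 and Gsdmc3. Shown are the 250 bases before the start site of the called genes Nlrc4 and Pycard, and of Casp1 and Nlrp6, whose promoters held a motif match. Capitals mark matches. The Nlrc4 window is chr17:74459109-74459358 on the minus strand, that of Pycard chr7:127993868-127994117 on the minus strand, that of Casp1 chr9:5298267-5298516 on the plus strand and that of Nlrp6 chr7:140920652-140920901 on the plus strand.
Nlrc4: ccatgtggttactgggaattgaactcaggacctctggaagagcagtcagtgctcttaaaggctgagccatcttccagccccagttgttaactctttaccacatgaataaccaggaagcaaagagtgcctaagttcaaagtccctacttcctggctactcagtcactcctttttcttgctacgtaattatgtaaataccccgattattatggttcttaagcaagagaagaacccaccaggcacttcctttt
Pycard: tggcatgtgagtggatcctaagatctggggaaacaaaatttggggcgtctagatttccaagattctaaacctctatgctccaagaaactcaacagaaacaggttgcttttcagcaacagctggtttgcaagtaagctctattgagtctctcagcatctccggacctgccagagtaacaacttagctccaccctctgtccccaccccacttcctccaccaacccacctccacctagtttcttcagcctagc
Casp1: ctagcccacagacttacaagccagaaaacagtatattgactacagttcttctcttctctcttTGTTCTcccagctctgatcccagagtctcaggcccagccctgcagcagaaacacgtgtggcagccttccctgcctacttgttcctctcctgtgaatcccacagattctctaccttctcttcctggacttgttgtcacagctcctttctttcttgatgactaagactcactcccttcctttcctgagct
Nlrp6: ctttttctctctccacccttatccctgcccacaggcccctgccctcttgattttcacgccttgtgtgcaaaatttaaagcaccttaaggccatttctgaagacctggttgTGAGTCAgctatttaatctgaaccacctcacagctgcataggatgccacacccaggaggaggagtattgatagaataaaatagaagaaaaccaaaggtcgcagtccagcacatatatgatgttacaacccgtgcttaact

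Both strands of each 300-base window, which runs 50 bases past the start site, were searched for 4 motifs. The 6-letter core site of the glucocorticoid receptor (AGAACA or TGTTCT) was found once, as TGTTCT in Casp1 from base -188 to -183, and it occurs in 19.0% of all 32851 promoters of the table. The AP-1 site (TGACTCA or TGAGTCA) was found once, as TGAGTCA in Nlrp6 from base -140 to -134, against 5.20% of all promoters. The STAT site (TTC and GAA with any 3 or 4 bases between them) and the interferon response element (GAAA and GAAA with any 2 bases between them, or its reverse complement) were in no promoter of the 6 genes, against 14.6% and 3.44% of all promoters. No letters of the motifs overlap at these matches. A match describes the letters only, and the windows of the called genes Nlrc4 and Pycard held none of the 4 motifs.

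Other genes of the pathway were read from 5 lists with 37 genes, of which 30 were tested. Of these 12 rose, 1 fell and 17 were not called, with a median log2 change of 0.53, against 15.0% raised, 15.4% lowered and a median of 0.01 over all tested genes. Among 13 further sensors and sensor partners 12 were tested, of which 5 rose and 7 were not called. Naip1, whose protein brings the secretion-system needle to Nlrc4, rose to 4753 ± 644.9 normalized reads in KO, against 2979 ± 233.1 in WT (log2 change 0.67, limma adjusted p = 0.00959). Of its 75-base stretches 20.5% are shared with other Naip genes, and Naip2, Naip5 and Naip6 were not called. Nlrp3, a sensor best known in myeloid cells, rose to 129.9 ± 90.87 in KO, against 15.46 ± 4.236 in WT (log2 change 2.81, limma adjusted p = 0.00465). Nlrp10, a family member without leucine-rich repeats, and the sensor Nlrp1a also rose, with log2 changes of 1.58 (limma adjusted p = 0.00380) and 1.09 (limma adjusted p = 0.0205). The call of Nlrp1a was lost without KO 1, WT 1 or WT 2 (limma adjusted p of 0.0589, 0.0734 and 0.0641). Nlrp12 was under the filter.

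Casp8, an apoptotic initiator that can also cleave gasdermin D, rose to 2397 ± 703 in KO, against 1327 ± 111.2 in WT (log2 change 0.82, limma adjusted p = 0.0181). Gsdme, another pore former, fell to 63.09 ± 27.5 in KO, against 153.3 ± 43.07 in WT (log2 change -1.34, limma adjusted p = 0.0295), and was the only one of 5 other gasdermin genes that could be tested. Gsdmd and Gsdme thus moved in opposite directions, but the call of Gsdme was lost without KO 3, WT 1 or WT 2 (limma adjusted p of 0.0565, 0.0814 and 0.106) and that of Casp8 without WT 1 or WT 2 (0.0694 and 0.0686). Gsdma, Gsdma2, Gsdma3, Pjvk and Casp12 were under the filter.

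Of the cytokines and genes of membrane rupture and repair, 2 of 5 rose and 3 were not called. Il1b, a cytokine matured by caspase-1, had 2521.1, 606.3 and 756.1 normalized reads in KO, against 75.4, 129.1 and 143.9 in WT (log2 change 3.22, limma adjusted p = 0.00451), and without KO 1 its log2 change was 2.59. Il18, the other cytokine substrate and an epithelial product, had 936.3 ± 265.5 in KO and 765.5 ± 150.1 in WT and was not called (log2 change 0.27, limma adjusted p = 0.375). Chmp4b, an ESCRT-III subunit that removes gasdermin pores, rose with a log2 change of 0.54 (limma adjusted p = 0.0215). Among 12 regulators 11 were tested, of which 4 rose and 7 were not called. Serpinb1a, a protease inhibitor whose human counterpart restrains inflammatory caspases, rose to 13420 ± 1433 in KO, against 5050 ± 1137 in WT (log2 change 1.43, limma adjusted p = 0.00200). Il4ra, the receptor subunit for interleukin-4 and interleukin-13, rose to 1958 ± 1050 in KO, against 580 ± 16.57 in WT (log2 change 1.60, limma adjusted p = 0.0147). The interferon-induced GTPase genes Gbp3 and Gm12250 rose with log2 changes of 2.72 (limma adjusted p = 0.0363) and 2.85 (limma adjusted p = 0.0403), although Gm12250 overlapped between the groups. Without KO 1 the log2 changes were 1.87 for Gbp3 (limma adjusted p = 0.0521) and 2.18 for Gm12250 (limma adjusted p = 0.0883), and both calls were also lost without KO 3, WT 1 or WT 2. Without WT 1 or WT 2 the calls of Chmp4b (limma adjusted p of 0.0908 and 0.0786) and Il4ra (0.0550 and 0.0503) were lost. Gbp5 was under the filter. Without the library labelled WT 3, 15 of these pathway genes were raised and 1 lowered, among them all 13 called here, whereas 5 were raised without WT 1 and 5 without WT 2.

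**Figure D3:**
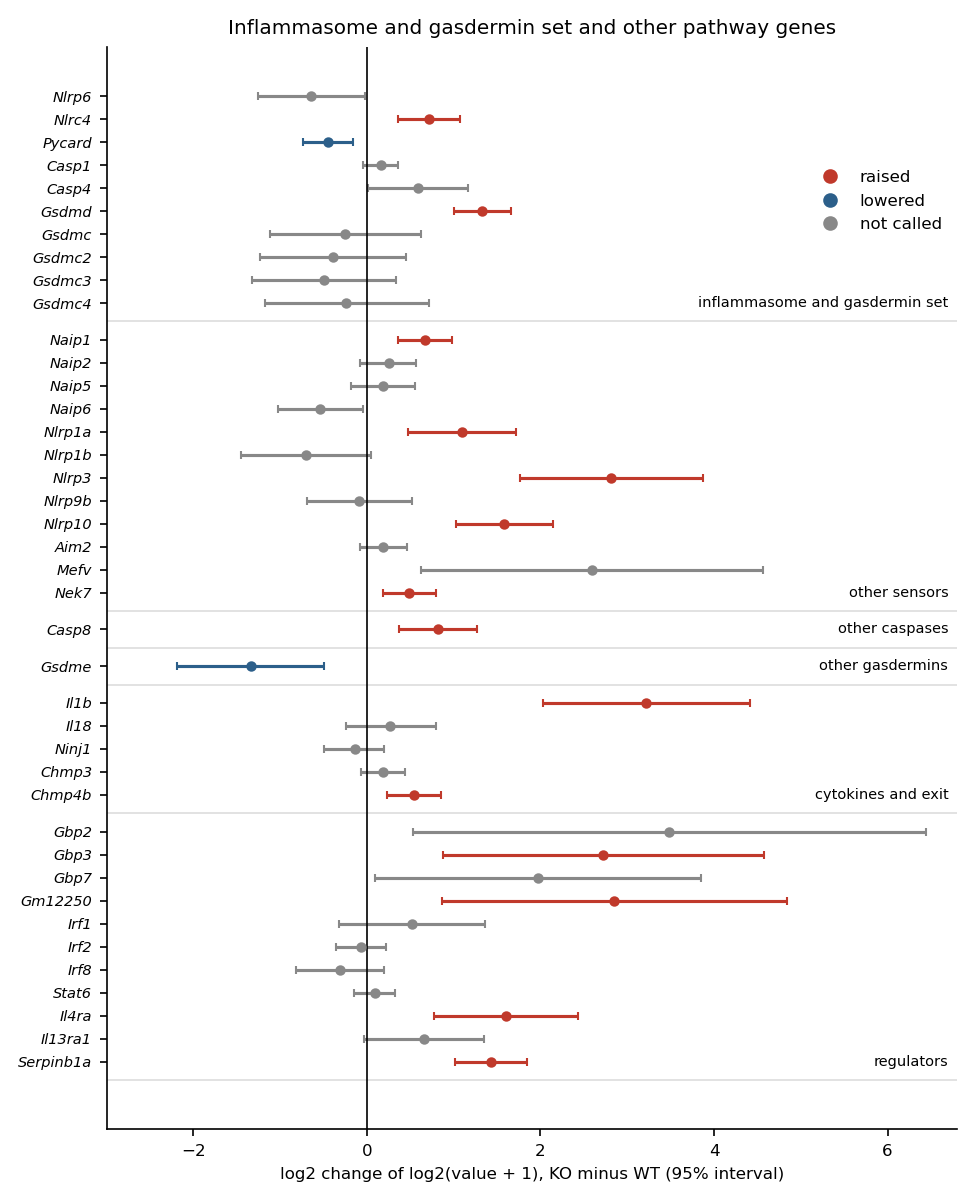
Log2 change, KO minus WT, on the log2(value + 1) scale (horizontal axis) with 95% intervals for the 10 genes and the 30 tested genes of the pathway lists. Red marks raised, blue lowered and grey not called genes. Gsdmd at 1.33 stands highest of the 10, and Il1b at 3.22 is the highest of the called genes.

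Marker levels of several other cell types also differed between the groups. The 11 myeloid markers summed to 2741, 1083 and 1843 normalized reads in KO, against 458.5, 741.2 and 1047 in WT, and 7 of the 10 tested rose. The 5 neutrophil markers summed to 5283, 2314 and 1357 in KO, against 114.6, 160.4 and 161.2 in WT, and all 5 rose. The 2 pan-leukocyte markers rose as well. The share raised over all tested genes was 15.0%. Of 6 stromal markers 4 were tested and 1 rose, and none of the 6 T cell markers reached the filter. The 1 tested mast cell marker, Kit, fell. The 1 tested marker each of endothelium, muscle, and B and plasma cells was not called. Nlrc4, Casp4, Nlrp3 and Il1b, each with a higher mean in KO, are also known from myeloid cells. So are Gsdmd, which rose, Casp1, which was not called, and Pycard, which fell. Gsdmd and Nlrc4 were higher, and Nlrp6 and slightly Casp1 lower, in the KO libraries with more myeloid reads. Pycard did not follow that order. With the mean log2 level of all 44 markers as a covariate limma called none of the 10 genes, with an unadjusted p under 0.05 for 1 of them, Gsdmd. Gsdmd then had a log2 change of 0.89 (limma adjusted p = 0.218), Nlrc4 0.23 (limma adjusted p = 0.874) and Pycard -0.25 (limma adjusted p = 0.858). That marker level ran with genotype at r = 0.869 over the 6 libraries, so that in this fit the 2 cannot be told apart.

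**Figure D4:**
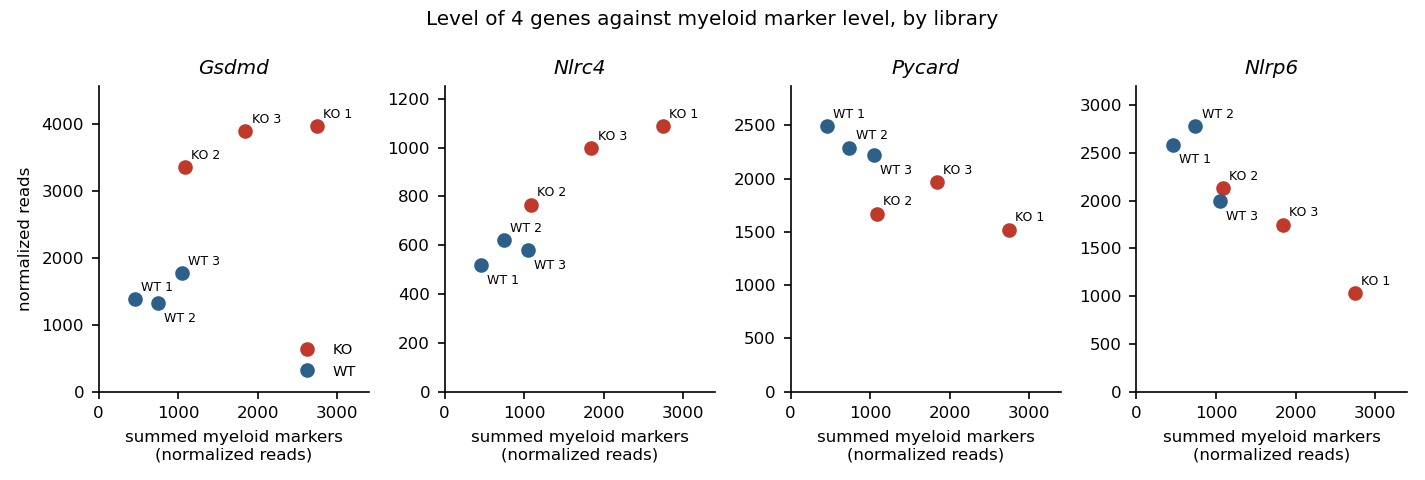
Normalized reads of Gsdmd, Nlrc4, Pycard and Nlrp6 (vertical axes, from 0) against the summed level of 11 myeloid markers (horizontal axes, normalized reads) in the KO and WT libraries. The KO libraries reach 2741 on the horizontal axis and the WT libraries 1047, and the neutrophil markers, not plotted, also differ between the groups.

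Summed levels of epithelial subtype markers, which weigh the highest genes most, were also lower in KO. This does not separate fewer cells from less RNA per cell. The 9 goblet cell markers summed to 50180, 81080 and 62270 in KO, against 89200, 86460 and 84970 in WT, with 2 of 9 lowered. The 8 markers of surface colonocytes summed to 141100, 183400 and 123100 in KO, against 252700, 275200 and 232700 in WT, with 1 raised and 2 lowered. Among all tested genes 15.0% rose and 15.4% fell. Car1 alone made up 157500 of the surface colonocyte sum in WT 1, against 27910 in KO 1. Muc2 alone made up 33410 of the goblet sum in WT 1, against 8183 in KO 1. Other markers went the other way. Krt20 was the raised one, and Tff3, not called, was higher in every KO library than in every WT library. As mean log2 levels both lists overlapped between the groups. Surface colonocyte markers had 12.92, 13.98 and 13.04 in KO and 13.52, 13.71 and 13.89 in WT. Nlrp6 was lowest in KO 1, where the goblet sum was lowest too, while the gasdermin C genes were lowest in KO 2, which had the highest goblet and surface colonocyte sums among the KO libraries. The part of these cell types in the values of the 10 genes was not tested.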

How the data were processed

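RNA was sequenced from 6 libraries, 3 KO and 3 WT, as non-stranded mRNA libraries made with a TruSeq kit, per the labels' protocols. The submitters' processing notes name FastQC, TopHat, DESeq2 and the build mm10, with no versions, and no source used here gives the counter or the annotation. The deposited values are a normalized signal: reads per gene, scaled by the authors with 1 size factor for each library. In every column each value was a whole multiple of 1 step within 0.001 (100% of values), which gave back the whole reads, 10089313 to 12030844 per library. Rows are Entrez numbers, of which 23666 of 23725 matched a RefSeq symbol. Coordinates are those of GRCm38, from which mm10 was made. Non-stranded libraries cannot separate overlapping genes. Nlrc4 overlaps a processed pseudogene and Pycard an antisense gene model, neither of which is in the table.

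The main test was limma 3.58.1 (R 4.3.3) with an intensity-dependent prior, two-sided, on log2(value + 1). It covered the 12837 genes that reached a value of 10 in 3 or more libraries, with Benjamini-Hochberg adjustment over all of them. A log2 change is on that scale, KO minus WT, and is too small for low genes. Alternatives were pseudocounts (0.5 and 5), the filter (none, or 50 in place of 10), the scaling (TMM, upper-quartile, quantile), library weights, robust empirical Bayes, a marker covariate, leaving out each library, and count tests of the recovered reads (edgeR 4.0.16 and DESeq2 1.42.0) with the authors' size factors. Only the limma fit was tested on simulated data. Replicates were numbered in accession order and are not paired, and the labels give no batch. Nothing says whether each library came from 1 animal, so p-values measure the spread between these libraries. No replicate pair agreed within sampling noise (chi-square per degree of freedom 15.0 to 57.5). The genes, the pathway lists and the marker lists were chosen with earlier results of these data known. Named were all 10 genes, Nr3c1, at most 4 called genes per pathway list by smallest adjusted p, the list genes under the filter and, for each of the 10, the most correlated other gene. Il18, Naip2, Naip5 and Naip6 were named after their values were seen. Some genes of the pathway lists are not reported here.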

Additional observations from a re-analysis of the deposited data

How the results depend on the processing

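Each of the 10 genes was refitted under 18 alternatives, 180 values in all, of which 164 kept their direction and side of the threshold. Under the scalings, pseudocounts, filters, robust fit, library weights, edgeR and DESeq2, Gsdmd and Nlrc4 were raised and Pycard lowered each time. With the marker covariate the limma counts fell to 0 raised and 0 lowered of the 10, 0 and 0 of the pathway genes (1 of the 10 and 4 of the pathway genes had an unadjusted p under 0.05), and 15 and 23 of all tested genes, and Nr3c1 had a log2 change of -0.54. The log2 change then turned to 0.44 for Nlrp6, -0.50 for Casp4, -0.48 for Mefv, -2.25 for Gbp2, -0.41 for Gbp3, -1.50 for Gbp7, -0.54 for Gm12250, -1.03 for Irf1, 0.14 for Irf2, -0.02 for Stat6 and -0.59 for Il13ra1. That covariate follows genotype, so the cause was not tested. Leaving out 1 library in turn gave 1 to 3 raised and 0 to 1 lowered of the 10, and 5 to 16 raised and 0 to 2 lowered pathway genes. Among all tested genes it gave 970 to 1782 raised and 953 to 1825 lowered (the lowest counts without WT 1). Nr3c1 had log2 changes of -2.82 to -1.57 in these fits and was called only without the library labelled WT 3. In the main fit Nr3c1 was called lowered (log2 change -2.03, limma adjusted p = 0.0372), as it was by edgeR and DESeq2. The leave-one-out fits hold fewer libraries. The log2 change ran from -0.64 to 0.17 for Gsdmc, -0.76 to 0.04 for Gsdmc2 and -0.67 to 0.18 for Gsdmc4, lowest without KO 3 and turned positive without KO 2, from -0.36 to 0.08 for Nlrp9b (0.05 with library weights) and from -0.14 to 0.01 for Irf2. No paired analysis was possible because the labels give the groups no shared replicate numbers.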
